A study of Mus musculus with 6 samples.

Results

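The replication-dependent histone genes make the histone proteins that package newly copied DNA. They were taken as every protein-coding gene of the deposited table whose name begins with Hist1h, Hist2h, Hist3h or Hist4h, which gave 67 of 53465 genes. By type these were 6 genes of H1, 18 of H2A, 18 of H2B, 12 of H3 and 13 of H4. By place they were 54 genes of the Hist1 cluster on chromosome 13, 10 of Hist2 on chromosome 3, 2 of Hist3 on chromosome 11 and 1 Hist4 gene on chromosome 6. Enough counts for a test were present for 51 of the 67, among 15533 genes tested in all. No count in any library was recorded for 4 members, and the other 12 untested members had at most 15 counts in a library.

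RNA came from bone marrow cells of wild-type mice that had all been given 5.0 Gy of total body irradiation. One group received carnosine, a natural dipeptide built from beta-alanine and histidine, and the other saline, with 3 libraries in each. Cells had been sorted for the surface markers of long-term haematopoietic stem cells (LT-HSCs), by absence of lineage markers, Flk2 and CD34 and presence of Sca-1 and c-Kit. No unirradiated group is among the 6 libraries, and neither the dose and timing of carnosine nor the age and number of mice is given in the labels. Nothing in the labels states that each library is from its own mouse, and p-values therefore measure only library-to-library spread, which may be technical. The comparison asks how carnosine, set against saline in irradiated mice, bears on histone transcripts of the sorted cells.

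H2A, H2B, H3 and H4 form the protein core around which DNA is wound, and H1, the linker histone, binds where DNA enters and leaves that core. Cells make most of these proteins during DNA replication from clustered genes without introns. Their usual messenger RNA has no poly-A tail. It ends just past a short hairpin, the stem-loop, which the stem-loop binding protein recognises. Some of these genes also give longer, polyadenylated transcripts, which are known from cells that leave the division cycle and differentiate. The libraries here were made from RNA caught by its poly-A tail, so the levels below are those of polyadenylated histone transcripts and of any tailless RNA carried over, not of total histone RNA.

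The stem-loop is printed for 6 members because it marks where the usual tailless transcript ends, and the changes below are described by how far the annotated transcript goes on beyond it. The lines give GRCm38 positions and read along the gene, with the 16 bases of the element in capitals and 5 flanking bases on each side.
Hist1h1c (chr13:23739507-23739532, plus strand): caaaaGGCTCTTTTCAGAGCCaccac
Hist3h2a (chr11:58955167-58955192, plus strand): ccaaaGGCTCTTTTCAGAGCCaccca
Hist1h2ao (chr13:21810893-21810918, plus strand): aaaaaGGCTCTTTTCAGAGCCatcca
Hist1h2bm (chr13:21722501-21722526, plus strand): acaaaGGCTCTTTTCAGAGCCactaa
Hist1h1e (chr13:23621777-23621802, minus strand): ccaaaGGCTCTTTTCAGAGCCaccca
Hist1h4i (chr13:22040961-22040986, minus strand): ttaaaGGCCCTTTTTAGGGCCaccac
The element was searched as GG, 3 bases of any kind, TT, any base, T, any base, A, 3 bases of any kind and CC, on the strand of the transcript only, within 100 bases after the stop codon of the longest coding transcript in the GENCODE M21 annotation. It was present in 45 of the 67 members, and in 45 of the 52 whose annotated 3′ untranslated region is longer than 30 bases. Of 19714 other protein-coding genes with at least 100 such bases, 34 held it, a share of 0.172%. The form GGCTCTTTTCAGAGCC was in 25 members, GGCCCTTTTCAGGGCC in 7 and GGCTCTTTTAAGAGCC in 6, while Hist1h4i carried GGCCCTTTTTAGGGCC. Hist1h1c and Hist1h1e, linker histone genes whose transcripts moved in opposite directions, carried the same 16 bases.

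Upstream sequence is printed for 4 members that changed, 2 lower and 2 higher with carnosine, from the RefSeq promoter table of GRCm38.p6. Each line is the 100 bases before the RefSeq start, read along the gene, and capitals mark TATAAA or CCAAT on either strand.
Hist1h1c (chr13:23738707-23738806, plus strand): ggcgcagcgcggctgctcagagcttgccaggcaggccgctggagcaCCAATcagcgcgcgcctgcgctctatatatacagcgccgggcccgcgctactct
Hist3h2a (chr11:58954585-58954684, plus strand): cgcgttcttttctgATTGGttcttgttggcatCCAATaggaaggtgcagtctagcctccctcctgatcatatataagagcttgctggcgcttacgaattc
Hist1h1e (chr13:23622559-23622658, minus strand): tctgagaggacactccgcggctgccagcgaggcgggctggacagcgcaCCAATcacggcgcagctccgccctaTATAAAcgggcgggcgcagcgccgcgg
Hist1h2ao (chr13:21810267-21810366, plus strand): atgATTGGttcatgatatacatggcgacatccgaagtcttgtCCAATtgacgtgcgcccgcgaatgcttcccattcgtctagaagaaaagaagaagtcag
A promoter was matched for 61 of the 67 members. Over 250 bases upstream and both strands, TATAAA was in 29 of the 61 (47.5%) and in 12.4% of all 32851 promoters, and CCAAT was in 50 of the 61 (82.0%) and in 33.8% of all. All 4 promoters shown held CCAAT, and of these 4 the letters TATAAA were in that of Hist1h1e. The Hist1h2ao window ends at 21810366, while its GENCODE transcript starts at 21810465. The bases between were not searched, so a missing TATAAA there does not describe the stretch next to that start. The motifs were searched separately, and a match describes the letters of the window, not a bound site.

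Histone transcripts took nearly the same small share of the library in both groups, while their make-up differed. All 67 members together summed to 248, 252 and 260 CPM (counts scaled to library size) in the carnosine libraries and 256, 259 and 262 CPM in the saline libraries. The means were 253 ± 6.30 CPM with carnosine and 259 ± 3.13 CPM with saline (SD, n = 3 each), a ratio of 0.979 with overlapping groups. Within that sum 3 genes fell with carnosine and 4 rose. The 3 that fell, Hist1h1c, Hist1h2bc and Hist3h2a, together held 86.0 ± 3.90 CPM with carnosine and 125 ± 0.976 CPM with saline. The other 64 members together held 167 ± 6.66 CPM with carnosine and 133.8 ± 2.32 CPM with saline (SD, n = 3 each). Those 2 sums were formed after the directions were known, so they only describe how the total is made up.

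By edgeR's quasi-likelihood test with Benjamini-Hochberg adjustment at 0.05 over all genes tested, 7 of the 51 tested members passed, or 13.7%. The share over all genes was 39.4%, with 19.6% higher and 19.8% lower. Groups did not overlap for 15 of the 51 members (29.4%), against 52.3% of all genes. An unadjusted p under 0.05 was reached by 12 members. The median log2 fold change was 0.32 over the 51 members and -0.00005 over all genes, with 38 members above 0 and 13 below. Most members were low, and their median standard error was 0.227 on the log2 scale, against 0.0930 for all genes. Among genes under 2 CPM it was 0.271 for histone members and 0.302 for all, and at 2 to 4 CPM 0.204 for both. Histone members had the larger value at 4 to 16 CPM (0.204 against 0.125) and at 16 CPM or more (0.0805 against 0.0587). Of the 26 tested members under 2 CPM, 1 was called, where 20.4% of all genes at that level were. At 2 to 4 CPM 1 of 13 was called and at 4 to 16 CPM 2 of 7, where 28.6% and 37.7% of all genes were. Of the 5 members at 16 CPM or more, 3 were called, where 46.4% of all genes were.

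**Figure D1:**
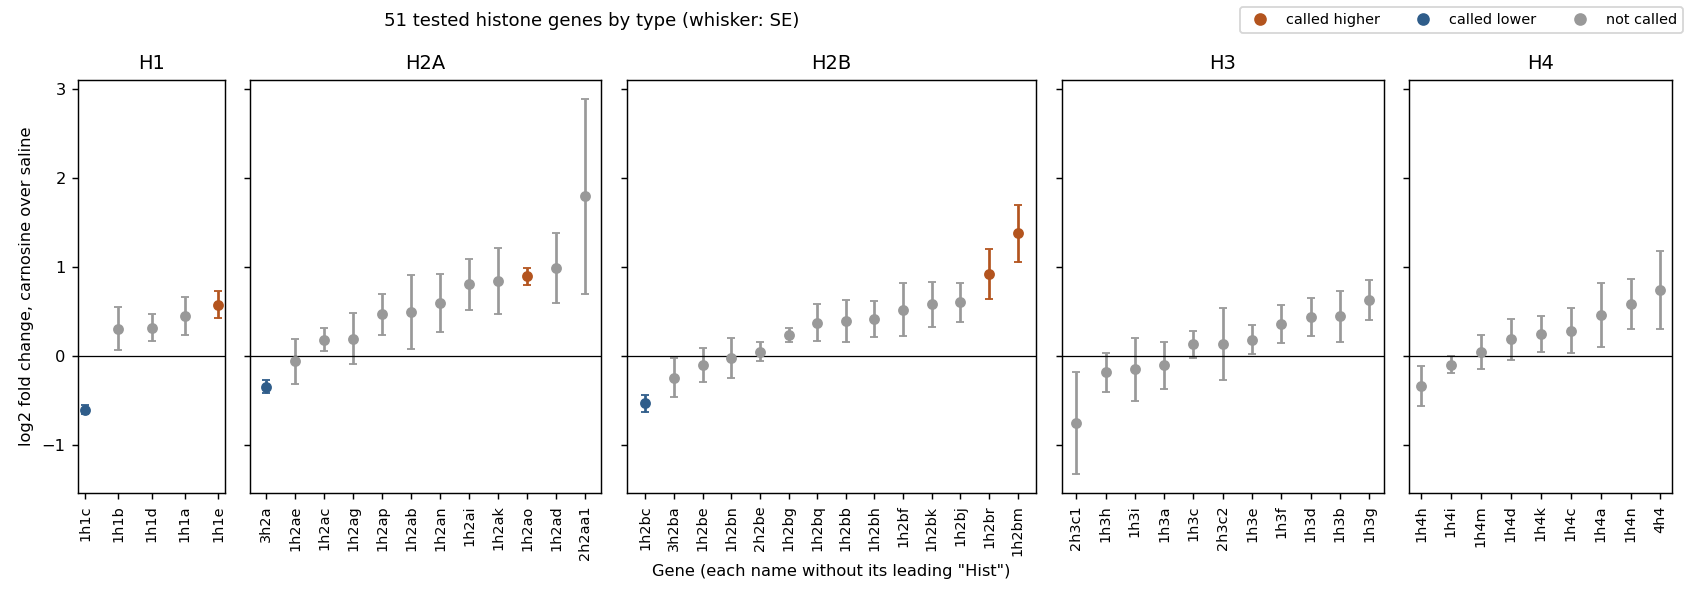
The log2 fold change (carnosine over saline) of each of the 51 tested histone genes, by type, with whiskers of 1 standard error. The 4 members called higher (orange) and the 3 called lower (blue) stand among uncalled members (grey), of which most lie above 0, and the linker histone Hist1h1c is the lowest called value at -0.60.

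Among H1 genes the most abundant transcript fell with carnosine, 1 other rose, and the 3 remaining tested members lay above 0 without passing. Over all genes 19.8% fell and 19.6% rose. Hist1h1c (ENSMUSG00000036181, chromosome 13, 23738808 to 23740367 on GRCm38) encodes a linker histone that many cell types make. Its levels were 49.3, 53.4 and 50.1 CPM in the carnosine libraries and 76.9, 79.1 and 76.0 CPM in the saline libraries. Every carnosine library lay below every saline library, and the spread within each group was small beside the gap. The log2 fold change was -0.60 ± 0.0478 (SE), or 0.659-fold, with an adjusted p of 8.8e-05 by edgeR's quasi-likelihood test.

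Hist1h1e (ENSMUSG00000051627, chromosome 13, 23620629 to 23622558), another widely made linker histone gene, went the other way. It had 4.39, 4.69 and 4.17 CPM in the carnosine libraries and 3.03, 2.47 and 3.41 CPM in the saline libraries, without overlap. It rose by a log2 fold change of 0.58 ± 0.153 (SE), with an edgeR adjusted p of 0.021. The call was lost without carnosine replicate 1 (adjusted p 0.056), carnosine replicate 2 (0.07), saline replicate 1 (0.053) or saline replicate 2 (0.058), while the log2 fold change stayed between 0.46 and 0.68 over the left-out libraries. Its annotated transcript overlaps that of the H2B gene Hist1h2be on the same strand, so reads in the shared stretch could be credited to either.

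Hist1h1a, an H1 gene with no stem-loop in its short annotated 3′ end, had 3.38, 3.17 and 3.01 CPM with carnosine and 1.94, 2.01 and 3.17 CPM with saline. The groups overlapped through saline replicate 3, and the difference did not pass (log2 fold change 0.45 ± 0.213, edgeR adjusted p = 0.14), though it did without that library (0.69, adjusted p = 0.022). Hist1h1b and Hist1h1d, further linker histone genes, had log2 fold changes of 0.31 and 0.32 and did not pass. Hist1h1t, the linker histone of the testis, had too few counts for a test. The summed H1 level was 63.6 ± 2.39 CPM with carnosine and 86.8 ± 0.644 CPM with saline (SD, n = 3 each), without overlap. Hist1h1c makes up 85.3% of it, and without Hist1h1c the log2 ratio of the sums was 0.42 in place of -0.45.

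**Figure D2:**
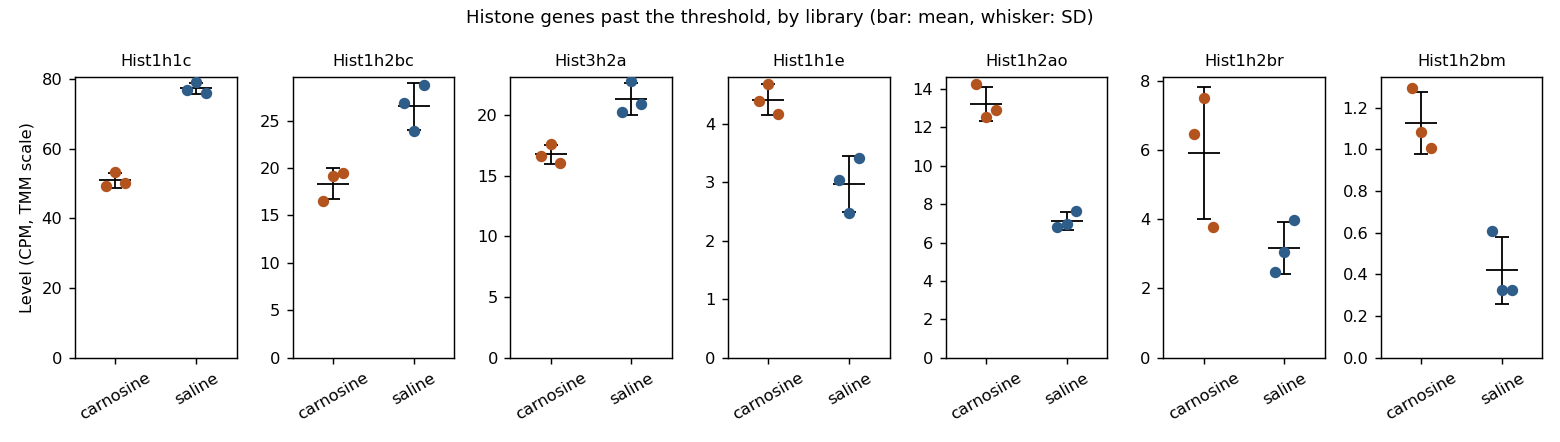
Level in CPM of the 7 histone genes past the threshold, with 1 point per library, the mean as a bar and the SD as whiskers, carnosine left of saline and each axis starting at 0. The groups are apart for 6 of the genes and overlap for Hist1h2br.

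Among H2A genes, 1 rose and 1 fell of 12 tested, where 19.6% of all genes rose and 19.8% fell. Hist1h2ao (ENSMUSG00000094248, chromosome 13, 21810465 to 21810944), a core histone gene, had 14.2, 12.5 and 12.9 CPM in the carnosine libraries and 6.79, 6.95 and 7.64 CPM in the saline libraries. The lowest carnosine library was well above the highest saline library. The log2 fold change was 0.90 ± 0.0935 (SE), or 1.86-fold, with an edgeR adjusted p of 3.4e-04. The coding sequence of Hist1h2ao is identical to that of Hist1h2ap, and 92.7% of its 100-base stretches occur in another gene, so reads may be divided between copies in ways the counts cannot show. The 2 genes together held 14.4 ± 0.867 CPM with carnosine and 7.94 ± 0.512 CPM with saline (SD, n = 3 each), without overlap.

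Hist3h2a (ENSMUSG00000078851, chromosome 11, 58954685 to 58956830) is the H2A gene of the small Hist3 cluster. It had 16.6, 17.6 and 16.1 CPM with carnosine and 20.2, 22.8 and 20.9 CPM with saline. No carnosine library reached the saline range, and it fell by 0.35 ± 0.0747 on the log2 scale (SE, edgeR adjusted p = 0.0094). Its annotation overlaps Trim17 on the same strand. Its neighbour Hist3h2ba, an H2B gene, was low at 1.29, 1.44 and 2.09 CPM with carnosine and 2.0, 1.82 and 1.87 CPM with saline, with overlapping groups (log2 fold change -0.25 ± 0.22, SE, adjusted p = 0.42).

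Hist2h2aa1, an H2A gene of the Hist2 cluster, had counts so uneven between libraries of a group that its change could not be read. The counts were 82, 122 and 143 in the carnosine libraries and 1, 0 and 100 in the saline libraries. Saline replicate 3 thus lay within the carnosine range while the other saline libraries were nearly empty. The log2 fold change of 1.8 ± 1.1 (SE) had an edgeR adjusted p of 0.24, and without saline replicate 3 it was 7.74 with an adjusted p of 0.00043. Its coding sequence is identical to that of Hist2h2aa2, which has 0 counts in every library, and it overlaps the non-coding gene Gm20634 on the same strand. Gm20634 had 59, 8 and 16 counts with carnosine and 324, 0 and 13 with saline, so saline replicate 1 had its high count at Gm20634 and its low one at Hist2h2aa1. The H3 gene Hist2h3c1 overlaps Gm20634 but not Hist2h2aa1. Together the 3 genes had 172, 169 and 169 counts with carnosine and 352, 90 and 142 with saline, and the groups overlapped.

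**Figure D3:**
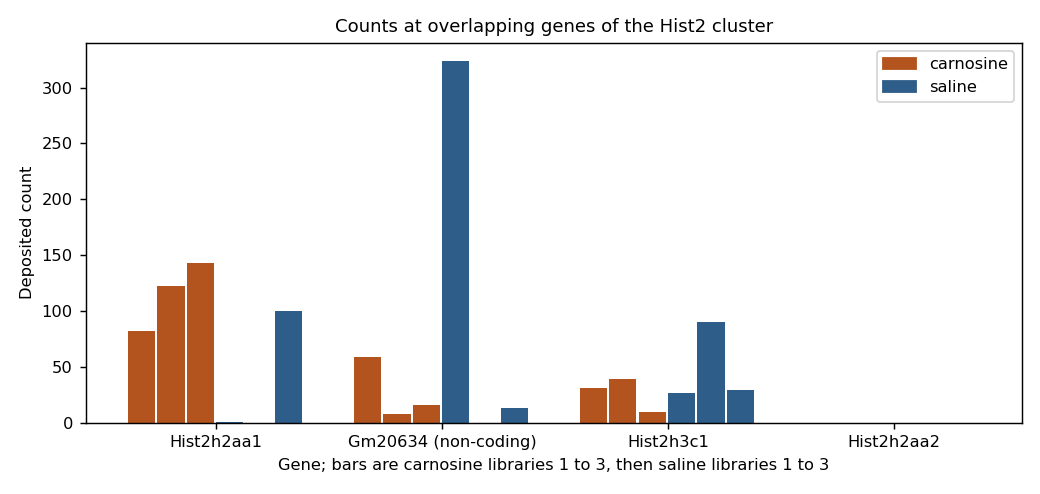
Deposited counts in each library for Hist2h2aa1, the non-coding gene Gm20634, Hist2h3c1 and Hist2h2aa2, carnosine libraries left of saline libraries. Hist2h2aa1 has 1 and 0 counts in saline replicates 1 and 2 but 100 in saline replicate 3, and Gm20634 peaks at 324 in saline replicate 1.

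The other 9 tested H2A genes had log2 fold changes between -0.0587 and 0.99, of which 8 were above 0, and the smallest edgeR adjusted p among them was 0.059. The summed H2A level was 61.0 ± 4.97 CPM with carnosine and 48.1 ± 4.11 CPM with saline (SD, n = 3 each), without overlap. Its log2 ratio was 0.34, and 0.21 without Hist2h2aa1. Most of the difference lay in Hist1h2ao and the uneven Hist2h2aa1, so the sum does not describe the type as a whole. Hist1h2ao averaged 13.2 CPM with carnosine and 7.12 CPM with saline, and Hist2h2aa1 averaged 8.58 CPM with carnosine and 2.73 CPM with saline.

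Among H2B genes, 2 rose and 1 fell of 14 tested, where 19.6% of all genes rose and 19.8% fell. Hist1h2bc (ENSMUSG00000018102, chromosome 13, 23684199 to 23692908) had 16.5, 19.1 and 19.5 CPM in the carnosine libraries and 26.9, 23.9 and 28.8 CPM in the saline libraries. The groups did not overlap, and the gene fell by 0.53 ± 0.0972 on the log2 scale (SE, edgeR adjusted p = 0.0047). Its annotated coding transcript is spliced from 2 exons and holds no stem-loop within the window searched. Hist1h2ac, the H2A gene that starts 250 bases away on the other strand, had a log2 fold change of 0.18 ± 0.13 (SE) and did not pass (adjusted p = 0.31).

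Hist1h2bm (ENSMUSG00000114279, chromosome 13, 21722044 to 21722567) rose, at a low level. It had 18, 15 and 13 counts in the carnosine libraries and 10, 5 and 4 counts in the saline libraries. These were 1.13 ± 0.150 CPM with carnosine and 0.419 ± 0.162 CPM with saline (SD, n = 3 each). The groups did not overlap, and the log2 fold change was 1.38 ± 0.318 (SE, edgeR adjusted p = 0.012). Only 6.59% of its 100-base stretches occur in another gene.

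Hist1h2br (ENSMUSG00000069303, chromosome 13, 21833743 to 21837530) had 6.47, 7.50 and 3.78 CPM with carnosine and 2.49, 3.05 and 3.98 CPM with saline. Carnosine replicate 3 lay below saline replicate 3. The gene rose by a log2 fold change of 0.92 ± 0.283 (SE, edgeR adjusted p = 0.037). The call was lost without carnosine replicate 1 (adjusted p 0.1), carnosine replicate 2 (0.11), saline replicate 1 (0.11) or saline replicate 2 (0.096). Its coding sequence is identical to that of Hist1h2bq, and the sum of both was 8.59 ± 2.13 CPM with carnosine and 5.23 ± 0.910 CPM with saline (SD, n = 3 each), without overlap.

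Hist1h2bg, next below Hist1h1c in level per length, had 18.8, 17.7 and 20.5 CPM with carnosine and 16.9, 15.3 and 16.2 CPM with saline. The groups did not overlap, but the difference missed the threshold (log2 fold change 0.24 ± 0.0805, edgeR adjusted p = 0.053); it passed in 3 of 15 alternatives, without carnosine replicate 2 (adjusted p = 0.048), with upper quartile scaling (0.048) and with limma-trend on FPKM (0.014). Hist1h2bn had 2.37, 1.59 and 2.70 CPM with carnosine and 2.12, 2.14 and 2.52 CPM with saline, with overlapping groups and a log2 fold change of -0.0218 ± 0.223 (SE) whose sign turned in 4 of 14 alternatives. The other 8 tested H2B genes had log2 fold changes between -0.10 and 0.61, 7 of them above 0, and the smallest adjusted p was 0.07. The H2B sum was 73.1 ± 1.06 CPM with carnosine and 71.1 ± 1.42 CPM with saline (SD, n = 3 each), a ratio of 1.03.

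Of the H3 genes, 0 of 11 tested passed edgeR's test, with 1 at an unadjusted p under 0.05. Of the H4 genes 0 of 9 passed, with 0 at that level, where 39.4% of all genes passed the test. The DESeq2 Wald test and limma-voom also called 0 of either type, while limma-trend on FPKM and the correction for GC content and length each called 1, the H3 gene Hist1h3g (edgeR log2 fold change 0.63 ± 0.227, SE, adjusted p = 0.063). Among the core histones these were also the types with the lower sums. The H3 sum was 25.3 ± 1.5 CPM with carnosine and 23.3 ± 3.34 CPM with saline. The H4 sum was 30.4 ± 1.39 CPM with carnosine and 29.7 ± 1.91 CPM with saline (SD, n = 3 each), and both overlapped between groups.

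Hist1h4i, an H4 gene next below Hist1h2bg in level per length, had 18.1, 16 and 14.7 CPM with carnosine and 18.8, 16.3 and 17.1 CPM with saline. Its groups overlapped, with a log2 fold change of -0.0958 ± 0.0997 (SE, edgeR adjusted p = 0.49). It made up 56.0% of the H4 sum. Hist1h4m had 2.80, 1.87 and 2.47 CPM with carnosine and 2.49, 2.14 and 2.27 CPM with saline. Hist1h4k had 1.73, 2.02 and 1.54 CPM with carnosine and 1.58, 1.62 and 1.22 CPM with saline. Both overlapped between groups, and Hist1h4m has a coding sequence identical to that of Hist1h4n. Hist4h4, the H4 gene that stands alone on chromosome 6, had 0.503, 0.937 and 1.31 CPM with carnosine and 0.424, 0.779 and 0.406 CPM with saline. It was near the limit of detection with overlapping groups (log2 fold change 0.74 ± 0.439, SE, adjusted p = 0.23). The other 5 tested H4 genes had log2 fold changes between -0.33 and 0.59.

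Among H3 genes, Hist1h3d had 5.03, 4.97 and 8.03 CPM with carnosine and 4.79, 4.54 and 3.82 CPM with saline. Its groups did not overlap, but carnosine replicate 3 stood above the rest and the difference did not pass (log2 fold change 0.44 ± 0.215, SE, edgeR adjusted p = 0.15). Hist1h3e had 3.45, 3.17 and 3.55 CPM with carnosine and 2.61, 3.57 and 2.76 CPM with saline. Hist1h3h had 1.87, 2.31 and 2.39 CPM with carnosine and 3.03, 1.88 and 2.52 CPM with saline. Both overlapped between groups, and the sign of Hist1h3h turned without saline replicate 1. The other 8 tested H3 genes had log2 fold changes between -0.75 and 0.63, 5 of them above 0.

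**Figure D4:**
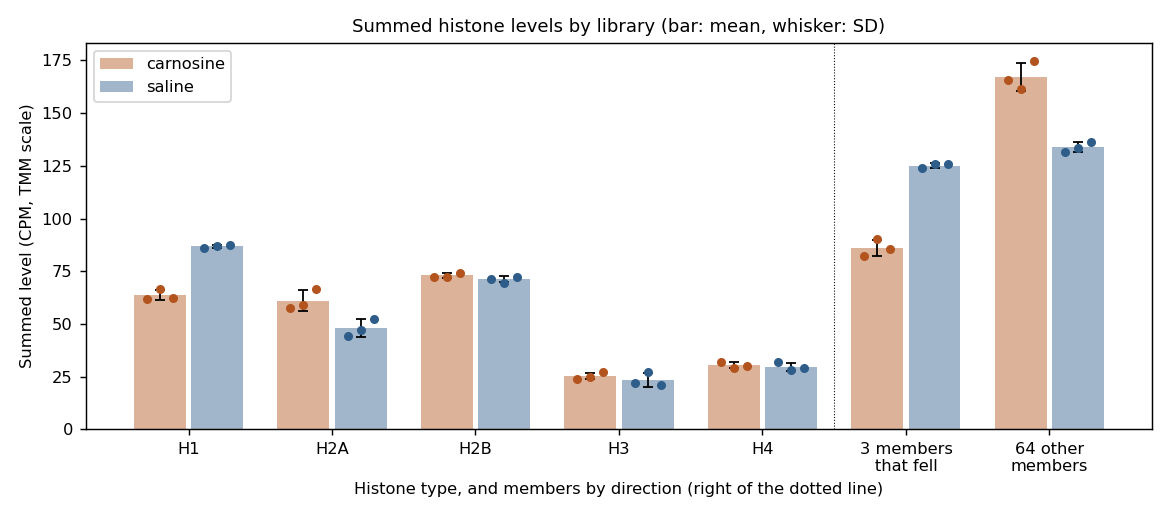
Summed level in CPM of each histone type, and of the 3 members that fell beside the 64 others, with 1 point per library, bars for means and whiskers for SD, carnosine left of saline. H1 is lower with carnosine (63.6 against 86.8 CPM) and H2A higher (61.0 against 48.1 CPM), while H3 and H4 overlap between groups. The lower H1 sum rests on Hist1h1c, and most of the H2A difference lies in Hist1h2ao and Hist2h2aa1.

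Ranked per length by the deposited FPKM (counts scaled to gene length and library total), 5 members stood above the rest. Hist1h1c averaged 33.2 ± 1.43 FPKM with carnosine and 48.5 ± 1.07 FPKM with saline. Hist1h2bg followed at 31.3 ± 2.32 FPKM with carnosine and 25.6 ± 1.19 FPKM with saline, then Hist1h4i at 22.8 ± 2.45 FPKM with carnosine and 23.4 ± 1.70 FPKM with saline. Hist1h2ao came next at 28.1 ± 1.91 FPKM with carnosine and 14.5 ± 0.900 FPKM with saline, and Hist1h2bc at 16.2 ± 1.43 FPKM with carnosine and 22.4 ± 2.03 FPKM with saline (SD, n = 3 each). Over all 6 libraries these 5 averaged 40.9, 28.4, 23.1, 21.3 and 19.3 FPKM, and the next, Hist2h2aa1, averaged 9.72 FPKM. With carnosine, Hist1h1c and Hist1h2bg, and Hist1h2bg and Hist1h2ao, differed by less than the sum of their SDs. With saline the same held for every pair among Hist1h2bg, Hist1h4i and Hist1h2bc, while Hist1h2ao lay below all 4. The FPKM length is the sum of a gene's annotated transcripts, checked for all 63 members with a count, which lowers the FPKM of the 5 members with several transcripts.

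The members also differed by how far their annotated transcript extends. In 28 the transcript goes on for at least 100 bases beyond the stem-loop, or beyond the stop codon where no stem-loop was found; these are called extended here. In 22 it ends within 100 bases after the stem-loop, and in 15 it ends at the stop codon or within 2 bases of it; the remaining 2 have short 3′ ends with no stem-loop. All 3 members that fell were extended, as were 2 of the 4 that rose, Hist1h1e and Hist1h2br. The other 2 that rose, Hist1h2ao and Hist1h2bm, end near the stem-loop. The 5 members at 16 CPM or more, which include the 3 that fell, were all extended, with standard errors of 0.0478 to 0.0997. Among tested members ending near the stem-loop, all but Hist1h2ao had a standard error of 0.152 or more. A fall of the same size was thus harder to call there, and annotated end and level cannot be told apart. A polyadenylation signal (AATAAA or ATTAAA) was in the last 50 bases of the annotated Hist1h1c and Hist3h2a transcripts, but not of Hist1h2bc, which also fell. That signal was also in Hist1h2br, which rose, and in Hist1h4i, which was not called. Hist1h1e, Hist1h2ao and Hist1h2bm, which rose, lacked it. The classes come from the annotation, not from the ends of the sequenced RNA.

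Members ending near the stem-loop were higher in sum with carnosine, while the lower sum of the extended members rested on Hist1h1c. The extended members summed to 184.6, 189.7 and 188.6 CPM in the carnosine libraries and 212, 219 and 213 CPM in the saline libraries. Members ending near the stem-loop summed to 46.1, 45.4 and 52.8 CPM in the carnosine libraries and 29.1, 26.7 and 34.2 CPM in the saline libraries. Neither pair of groups overlapped. Without Hist1h1c the extended members held 136.7 ± 1.60 CPM with carnosine and 137.3 ± 2.38 CPM with saline, with overlap. Without all 3 members that fell they held 101.6 ± 1.81 CPM with carnosine and 89.5 ± 3.19 CPM with saline (SD, n = 3 each), without overlap, and 16 of the 24 tested extended members had a log2 fold change above 0. Without Hist2h2aa1 and Hist1h2ao the stem-loop class held 26.3 ± 2.42 CPM with carnosine and 20.1 ± 1.93 CPM with saline (SD, n = 3 each), still without overlap. The median log2 fold change was 0.19 over 24 tested extended members and 0.51 over 18 tested members ending near the stem-loop, beside -0.00005 over all genes. Of the 8 tested members ending at the stop codon the median was 0.28. The classes were formed with the direction of the larger members known, and their difference was not tested.

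**Figure D5:**
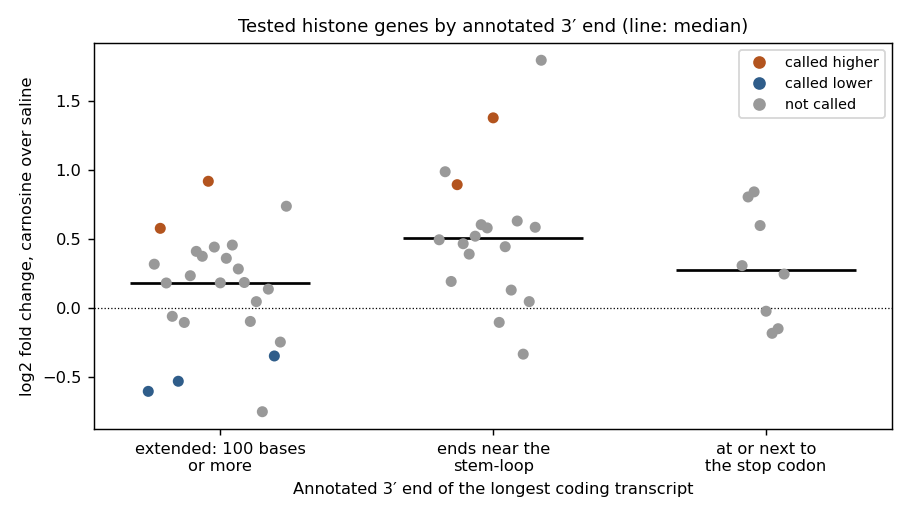
The log2 fold change (carnosine over saline) of tested histone genes by annotated 3′ end, with 1 point per gene and a line at the median of each class: extended by 100 bases or more, ending near the stem-loop, or ending at or next to the stop codon. The medians are 0.19, 0.51 and 0.28, and the 3 members called lower all lie in the extended class, which also holds all 5 members at 16 CPM or more.

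Along chromosome 13 the Hist1 members fall into 2 blocks more than 1000000 bases apart. In the block at 21715763 to 22043676, 3 of 19 tested members rose, where 19.6% of all genes did, and 15 of the 19 had a log2 fold change above 0 (median 0.47). Its summed level was 62.7 ± 3.54 CPM with carnosine and 49.4 ± 1.61 CPM with saline. Much of that difference lay in Hist1h2ao, at a mean of 13.2 CPM with carnosine and 7.12 CPM with saline, and Hist1h2br, at 5.92 and 3.17 CPM. In this block, which starts at 21715763, the sum was not formed without them. In the block at 23531050 to 23934851, 1 of 25 rose and 2 fell, where 19.6% and 19.8% of all genes did, and 19 of the 25 were above 0 (median 0.32). Its summed level was 149.5 ± 7.46 CPM with carnosine and 169 ± 0.618 CPM with saline (SD, n = 3 each). Neither block overlapped between groups. Without Hist1h1c the second block held 98.5 ± 7.52 CPM with carnosine and 91.5 ± 1.82 CPM with saline (SD, n = 3 each), so its lower sum rested on that gene.

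Core histone genes often stand in pairs that start close together and run in opposite directions. Such a layout was found for 13 pairs, 12 of them an H2A with an H2B gene, with starts 175 to 659 bases apart. In the pair of Hist1h2ao and Hist1h2bq, Hist1h2ao rose and Hist1h2bq had a log2 fold change of 0.38 ± 0.204 (SE) that did not pass. In the pair of Hist1h2br and Hist1h2ap, Hist1h2br rose and Hist1h2ap had 0.47 ± 0.235 (SE), also not past the threshold. These 2 pairs are near-copies of each other. No pair had both partners called.

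Of 20 tested genes of histone transcription and 3′ processing, 4 rose and 1 fell by edgeR's test, where 19.6% of all genes rose and 19.8% fell, with a median log2 fold change of 0.062 (all genes -0.00005). Npat, which activates histone gene transcription, fell to 57.2 ± 2.60 CPM with carnosine, against 77.1 ± 1.67 CPM with saline (n = 3 each, SD; log2 change -0.43 ± 0.0484, SE, adjusted p = 0.00047). Mblac1, an RNA nuclease reported to cleave histone pre-mRNA, rose to 4.5 ± 0.359 CPM with carnosine, against 2.04 ± 0.152 CPM with saline (1.13 ± 0.14, SE, adjusted p = 0.00074). Eri1, an exonuclease that trims and degrades histone RNA, rose by 0.20 ± 0.0279 (SE, adjusted p = 0.0012), and Lsm11, of the U7 particle that directs histone 3′ cleavage, by 0.39 ± 0.081 (SE, adjusted p = 0.0081), both as log2 fold changes. Slbp, the stem-loop binding protein itself, was at 112 ± 2.70 CPM with carnosine and 108 ± 3.4 CPM with saline (SD, n = 3 each), and its log2 fold change of 0.0631 did not pass (adjusted p = 0.23); it was named for its role.

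Replication-independent histone variants are mostly made throughout the cell cycle from polyadenylated RNA. Of the 11 tested, 5 fell and 6 did not pass, with a median log2 fold change of -0.13. Over all genes 19.8% fell and 39.4% were called in either direction. H1fx, a linker histone variant, fell to 5.71 ± 0.760 CPM with carnosine, against 10.8 ± 1.11 CPM with saline (n = 3 each, SD; log2 change -0.93 ± 0.132, SE, edgeR adjusted p = 0.0014). H1f0, the linker histone of cells that stop dividing, fell by 0.18 ± 0.0458, H2afy (macroH2A) by 0.13 ± 0.0272 and H2afv, an H2A.Z form, by 0.31 ± 0.101 on the log2 scale (SE), with adjusted p of 0.02, 0.0079 and 0.046. For H2afv the groups overlapped, with 64.5 CPM in carnosine replicate 2 and 63.8 CPM in saline replicate 2.

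Histone chaperones, which carry histones to DNA, showed 6 of 21 higher and 3 lower (median log2 fold change 0.059), a share near the 39.4% called over all genes. The 4 with the smallest p-values were Ubn1, Supt16, Asf1b and Nasp. Supt16, Asf1b and Nasp, which handle histones at replication or supply, rose by 0.19 ± 0.0249, 0.28 ± 0.0493 and 0.16 ± 0.0293 on the log2 scale. Ubn1, of the replication-independent HIRA pathway, fell by 0.40 ± 0.0291 (SE, edgeR adjusted p of 0.001, 0.004, 0.0047 and 5.7e-05). Hira and Cabin1, of the same pathway, had log2 fold changes of -0.030 and 0.060 and did not pass. The other chaperones that fell were Rbbp4 (-0.11 ± 0.0264, SE) and Dnajc9 (-0.098 ± 0.0298, SE), so the list did not divide by pathway. Genes of DNA replication showed 4 of 27 higher and 7 lower (median 0.036), also near that share. Among them Rrm2, which makes DNA precursors, rose by 0.57 ± 0.0327, Cdc45 of the replicative helicase rose by 0.29 ± 0.0463, while Mcm3 of the same helicase fell by 0.13 ± 0.024 and Pola1, a DNA polymerase subunit, by 0.14 ± 0.0232 on the log2 scale (SE), with edgeR adjusted p of 1.9e-05, 0.0027, 0.0056 and 0.0025. Mki67, a gene of dividing cells, was at 1099 ± 8.24 CPM with carnosine and 1012 ± 9.88 CPM with saline (n = 3 each, SD; log2 change 0.12 ± 0.0191, SE, adjusted p = 0.0026).

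Total counts were 12730837 to 13651553 with carnosine and 12602067 to 16866534 with saline, and histone genes took 0.0250% to 0.0265% of them in every library. Transcripts of Flt3 (Flk2) and Cd34, whose proteins the sort excluded, stood at 180 ± 2.51 and 301 ± 4.70 CPM with carnosine and 210 ± 8.64 and 329 ± 19.0 CPM with saline, so LT-HSC names the gate here. Slamf1, a stem cell gene that is not part of this gate, fell to 15.0 ± 1.40 CPM with carnosine, against 28.6 ± 0.736 CPM with saline. Kit, which is part of it, rose to 378 ± 4.11 CPM with carnosine, against 329.7 ± 10.2 CPM with saline (SD, n = 3 each, edgeR adjusted p of 0.00014 and 0.0015). Markers of other cells moved between the groups too, where 19.6% of all genes rose and 19.8% fell. Megakaryocyte markers summed to 109 to 115 CPM with carnosine and 237 to 256 CPM with saline, with 4 of 4 tested lower. Erythroid markers summed to 577 to 599 CPM with carnosine and 441 to 442 CPM with saline, with 5 of 8 higher and 1 lower, and T and NK markers to 112 to 119 CPM with carnosine and 83.0 to 85.9 CPM with saline, with 2 of 3 higher and 1 lower. Sums overlapped, or nearly touched, for neutrophil markers (48.6 to 49.0 CPM with carnosine, 49.5 to 52.0 CPM with saline, 2 of 7 higher and 3 lower), monocyte markers (365 to 393 CPM with carnosine, 385 to 418 CPM with saline, 1 of 5 higher and 3 lower) and B and plasma cell markers (496 to 794 CPM with carnosine, 478 to 494 CPM with saline, 2 of 7 higher). No marker was at 0 in all libraries. The part of these cells in the histone values was not tested, and in bulk RNA fewer cells of a type and less RNA per cell cannot be told apart.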

How the data were processed

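Poly-A RNA of cells sorted from mouse bone marrow was made into stranded paired-end libraries, 3 per group, per the labels' protocols. CASAVA 1.8, HISAT2, StringTie, edgeR and GRCm38 are named without roles in the submitters' processing notes; the counting of reads that match several genes, and the use of strand, are not given in the sources used. The deposited table holds a whole-number count and an FPKM value per gene and library, per the file headers. Within a gene the deposited FPKM was proportional to count over library total, as checked where the mean count was 100 or more. The length it uses was checked only for the 63 histone members with a count. All rows name a gene.

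The test was run in R 4.3.3 with edgeR 4.0.16: filterByExpr, TMM scaling, quasi-likelihood F-test of carnosine over saline without covariates, Benjamini-Hochberg adjustment at 0.05 over 15533 genes. The standard error is the log2 fold change over the square root of F. Sums and medians over members carry no test. Libraries of a group differed by 1.81 to 2.12 times sampling noise, so none was a repeat of the same reads or library. That ratio cannot tell libraries of separate mice from separate libraries of the same RNA. The procedure was tested on simulated data. The histone members and all gene lists were chosen with earlier results of these data known. Named with every library's value were the 3 members per type with the highest mean FPKM, members with adjusted p under 0.05, and those outside the Hist1 and Hist2 clusters, plus up to 4 genes by p-value from each other list; fewer are given for some lists. Of 22 processing genes, 20 were found by symbol. Transcripts and 3′ ends come from GENCODE M21, whose positions matched those of all 67 members; promoters come from RefSeq. A 100-base stretch found in another gene counted as shared. Alternatives were other scalings and filters, DESeq2 1.42.0, limma 3.58.1, the replicate number as a block, and each library left out; a correction for GC content and length and sums without Hist2h2aa1, Hist1h1c or the members that fell were chosen after seeing the data.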

Additional observations from a re-analysis of the deposited data

How the results depend on the processing

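Of the 4 histone genes higher with carnosine, the count was 1 with a filter of 5 CPM in 3 libraries (10 members tested), 2 with the DESeq2 Wald test, 9 with limma-trend on log2(FPKM + 1), which also moved the median of all genes to 0.051, and 2 to 6 with each library left out. The replicate numbers do not pair the samples (correlations of 0.00791, 0.0268 and 0.021), and with the replicate block 2 were higher. The 3 lower genes were 3 in all 15 alternatives, and Hist1h1c, Hist1h2ao, Hist1h2bc and Hist3h2a were called in each; Hist1h2bm was in 13 of 14 (DESeq2 adjusted p = 0.095), Hist1h1e in 8 of 14 and Hist1h2br in 7 of 14. Hist1h2bg, not called, passed in 3 of 15. The median log2 fold change of 0.32 was 0.11 with the 5 CPM filter, 0.37 with DESeq2 and 0.27 to 0.34 with a library left out.

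Log2 ratios of summed levels moved with the unit and with single members. With summed FPKM they were 0.19 for all members, -0.37 for H1, 0.74 for H2A and 0.14 for H2B. With summed CPM, leaving out the member of highest CPM, they were 0.16 for all, 0.42 for H1, 0.73 for H2A, 0.29 for H2B and 0.19 for H4. The members left out were Hist1h1c (all and H1), Hist3h2a (H2A), Hist1h2bc (H2B) and Hist1h4i (H4). Of these, Hist1h1c, Hist3h2a and Hist1h2bc had fallen. Hist1h2ao and Hist1h2bg, the highest H2A and H2B members by FPKM, stayed in. Without Hist2h2aa1 the CPM ratios were -0.0657 for all and 0.21 for H2A. The sign turned for Hist1h3h (0.0055 without saline replicate 1; -0.35 to 0.0055 over libraries left out), for Hist1h4m (-0.0886 without carnosine replicate 1, -0.0037 without saline replicate 2; -0.0886 to 0.20) and for Hist1h2bn (0.0046 with limma-trend, 0.17 without carnosine replicate 2, 0.053 without saline replicate 3, 0.039 with the GC and length correction; -0.18 to 0.17). The cause was not tested. Low counts limit the precision of most members, and shared sequence that of single copies.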
